A study of Rattus norvegicus with 56 samples.

Results

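The dopamine terminal and synthesis genes described here are 8 genes: tyrosine hydroxylase (Th), aromatic L-amino acid decarboxylase (Ddc), the dopamine transporter (Slc6a3), the vesicular monoamine transporter (Slc18a2), gamma-synuclein (Sncg), retinaldehyde dehydrogenase (Aldh1a1) and the monoamine oxidases Maoa and Maob. They were chosen by name, as genes that make, package, take up or break down dopamine or mark its terminals, and all probe sets carrying one of these symbols alone were kept, dim ones included. That gave 12 probe sets for the 8 genes, out of 31042 probe sets that are not controls and 14217 genes with a probe set of their own. Their log2 signals are described in the dorsal striatum of 56 rats.

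All rats were male Sprague Dawley rats (Crl:OFA), with 1 Affymetrix Rat230_2 array per animal and 7 animals in each of 8 groups. Lesioned rats had a loss of nigral neurons on both sides, induced with an AAV vector; sham rats had received the vector carrying GFP, so every rat had nigral surgery and a viral transgene. From 5 weeks after surgery, rats were injected daily for 3 weeks with L-dopa methyl ester (50 mg/kg) plus benserazide, a decarboxylase inhibitor that acts outside the brain, or with saline. They then went through place conditioning with the D2/D3 agonist pramipexole (2 mg/kg) or with saline, and were killed 24 or 48 h after the last dose. The 8 groups are thus lesioned and sham rats given L-dopa and pramipexole (both drugs), L-dopa and saline conditioning, saline and pramipexole, and saline throughout (neither drug). The labels name no promoter for the transgene and give no measure of nigral loss in single rats.

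Dopamine is made from tyrosine, which Th converts to L-dopa in a step that limits the rate and needs tetrahydrobiopterin. Ddc then converts L-dopa, also when given as a drug, to dopamine; Slc18a2 loads it into vesicles, Slc6a3 returns it from outside the cell, and Maoa and Maob oxidise it. The striatum receives dense dopamine terminals from the midbrain, but the cell bodies of these neurons, where most of their messenger RNA lies, are outside the dissected tissue.

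The probe sets differed widely in brightness. Maob (mean log2 signal 9.88) and Maoa (9.33) lay at the 95.8th and 93.1st percentile of all probe sets. Aldh1a1 (6.81), the brighter Ddc probe set (6.70) and Sncg (6.11) lay between the 55.7th and 65.8th percentile, above the 40th percentile (4.99) that was used as a mark of dimness. Th (4.11), both Slc6a3 probe sets (4.28 and 1.22), all 3 Slc18a2 probe sets (4.65, 4.02 and 2.93) and the second Ddc probe set (4.95) lay below it. Only 5 of the 12 were therefore above that mark, and signals of different probe sets were not set against each other as amounts of RNA. As a check of the tissue, all 11 medium spiny neuron markers with a probe set were at or above the 85.1st percentile, whereas 5 of 13 genes of midbrain dopamine neuron identity were above the 40th. Nr4a2, Ret, Gfra1, Kcnj6 and Slc10a4 were those 5, and Pitx3, En2, Foxa1, Foxa2, Chrna6, Chrnb3, Dlk1 and Ntsr1 were not.

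Signals of 15 probe sets separated arrays 1 to 37 from arrays 38 to 56 without overlap, and 0 of the 12 probe sets described here was among them. The labels do not say what changed at that step. All lesioned rats are in arrays 1 to 37, as are the 7 sham rats given both drugs and 2 of the 7 given L-dopa and saline conditioning; all other sham rats are in arrays 38 to 56. The lesion comparison in rats given both drugs therefore lies wholly in the first set. In the pairs given no L-dopa, lesion and array set cannot be told apart, and in the pair given L-dopa and saline conditioning they largely coincide.

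In rats given both drugs, all 12 probe sets had a lower mean in lesioned than in sham rats, with Th lowest, but none passed the test across all probe sets. The median difference, lesioned minus sham, was -0.12 on the log2 scale, against 0.00 over all probe sets, of which 50.0% were lower. With limma and Benjamini-Hochberg adjustment over 31042 probe sets, 0 of the 12 were called at an adjusted p under 0.05, and so were 0 (0%) of all probe sets. At an unadjusted p under 0.05, 1 of the 12 was counted, Th, against 6.26% of all probe sets. In 0 of the 12 were the signals of lesioned and sham rats without overlap, against 0.0966% of all. In whole tissue, fewer cells or terminals of a type and less RNA in each cannot be told apart.

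Th, the first enzyme of the pathway, had log2 signals with lowest, median and highest values of 3.32, 3.67 and 4.38 in the 7 lesioned rats, against 3.74, 4.46 and 5.01 in the 7 sham rats. The groups overlapped: 6 of 7 lesioned rats were below the sham mean, and 4 were below the lowest sham rat. The difference was -0.59 ± 0.22 (SE; 95% interval -1.03 to -0.16; limma unadjusted p = 0.0090, adjusted p = 0.740). Leaving out each rat in turn gave differences between -0.70 and -0.48, with adjusted p of at least 0.469. The probe set is dim, and with 16 added to the unlogged signals, which damps low values, the difference was -0.31.

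Ddc, which acts on both the body's own and the injected L-dopa, showed little separation. Its brighter probe set gave 6.46, 6.72 and 7.07 as lowest, median and highest values in lesioned rats, against 6.59, 6.74 and 7.17 in sham rats. The groups covered nearly the same range, and the difference was -0.03 ± 0.11 (SE; adjusted p = 0.983), with an interval of -0.26 to 0.19. The second probe set differed by -0.08 ± 0.20.

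Among the transporters, the brightest Slc18a2 probe set had lowest, median and highest values of 3.78, 4.38 and 4.80 in lesioned rats, against 4.19, 4.77 and 5.39 in sham rats. Here 6 of 7 lesioned rats were below the sham mean and 2 were below the lowest sham rat. The difference was -0.40 ± 0.23 (SE; interval -0.86 to 0.06; limma adjusted p = 0.840). The other 2 Slc18a2 probe sets differed by -0.15 ± 0.20 and -0.29 ± 0.68, the same direction with wider relative error. The dim Slc6a3 probe sets differed by -0.08 ± 0.22 and -0.11 ± 0.43, and the mean signal of the dimmer one, 1.07 in lesioned and 1.18 in sham rats, was near the bottom of the array.

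The annotated promoters of Th and Slc18a2 share a sequence feature, whose relation to the signals was not tested. Among the 10 promoter entries of the 8 genes in RefSeq's annotation of the rat build GRCr8 (250 bases before to 50 after each start), theirs alone hold the full cAMP response element TGACGTCA, which reads the same on both strands. It occurs in 1.83% of 33469 such promoters. The element begins 69 bases before the annotated start of Th (position -69) and 52 before that of Slc18a2 (position -52). The Th entry is chr1:207508169-207508468 on the minus strand and the Slc18a2 entry is chr1:268399771-268400070 on the plus strand. Both are shown along the gene's own strand, with the element in capitals.
Th: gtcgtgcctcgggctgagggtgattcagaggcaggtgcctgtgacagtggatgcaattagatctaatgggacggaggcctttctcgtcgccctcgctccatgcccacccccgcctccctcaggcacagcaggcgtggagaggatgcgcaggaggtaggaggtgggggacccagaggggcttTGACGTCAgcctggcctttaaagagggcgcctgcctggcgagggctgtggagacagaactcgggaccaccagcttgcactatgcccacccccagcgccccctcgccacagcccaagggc
Slc18a2: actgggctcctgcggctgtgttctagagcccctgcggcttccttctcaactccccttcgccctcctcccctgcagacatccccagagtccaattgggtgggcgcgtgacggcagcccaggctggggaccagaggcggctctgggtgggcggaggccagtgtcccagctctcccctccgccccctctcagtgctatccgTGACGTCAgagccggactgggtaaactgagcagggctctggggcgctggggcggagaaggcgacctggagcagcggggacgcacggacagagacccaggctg

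One of the 3 Ddc entries held the NGFI-B response element AAAGGTCA, searched on both strands and present in 1.43% of all promoters. These letter matches are a description and were not tested for use in these tissues. Over 56 rats, the deviations of Th and Slc18a2 from the group means gave Pearson r = 0.04 and Spearman rho = -0.03 (permutation p = 0.80 and 0.85, adjusted over 28 pairs of genes 0.83 and 0.90). Both probe sets lie below the mark of dimness, which limits what this r can show.

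The terminal markers were lower in mean but overlapped widely. Sncg, a small synuclein found in axons, had values of 5.25, 5.61 and 6.21 in lesioned rats, against 5.36, 5.65 and 7.68 in sham rats. Apart from 1 sham rat at 7.68, the groups covered much the same range. The difference of -0.26 ± 0.47 (SE) became 0.03 without that rat. Aldh1a1, which oxidises aldehydes and marks a subset of midbrain dopamine neurons, had values of 6.26, 6.60 and 7.18 in lesioned rats, against 6.59, 6.72 and 7.33 in sham rats. In 3 of 7 lesioned rats it was below the lowest sham rat, and the difference was -0.13 ± 0.13 (adjusted p = 0.938).

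The monoamine oxidases, which sit on the outer mitochondrial membrane of neurons and glia, were the brightest and least variable of the 8 genes. Maoa averaged 9.30 ± 0.19 in lesioned and 9.31 ± 0.17 in sham rats (SD, n = 7 each), a difference of -0.01 with an interval of -0.18 to 0.16. Maob averaged 9.83 ± 0.16 in lesioned and 9.91 ± 0.16 in sham rats, a difference of -0.08 with an interval of -0.22 to 0.06. For these 2 genes the intervals leave room for differences of at most 0.22 on the log2 scale, a bound set by 7 animals a group.

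**Figure D1:**
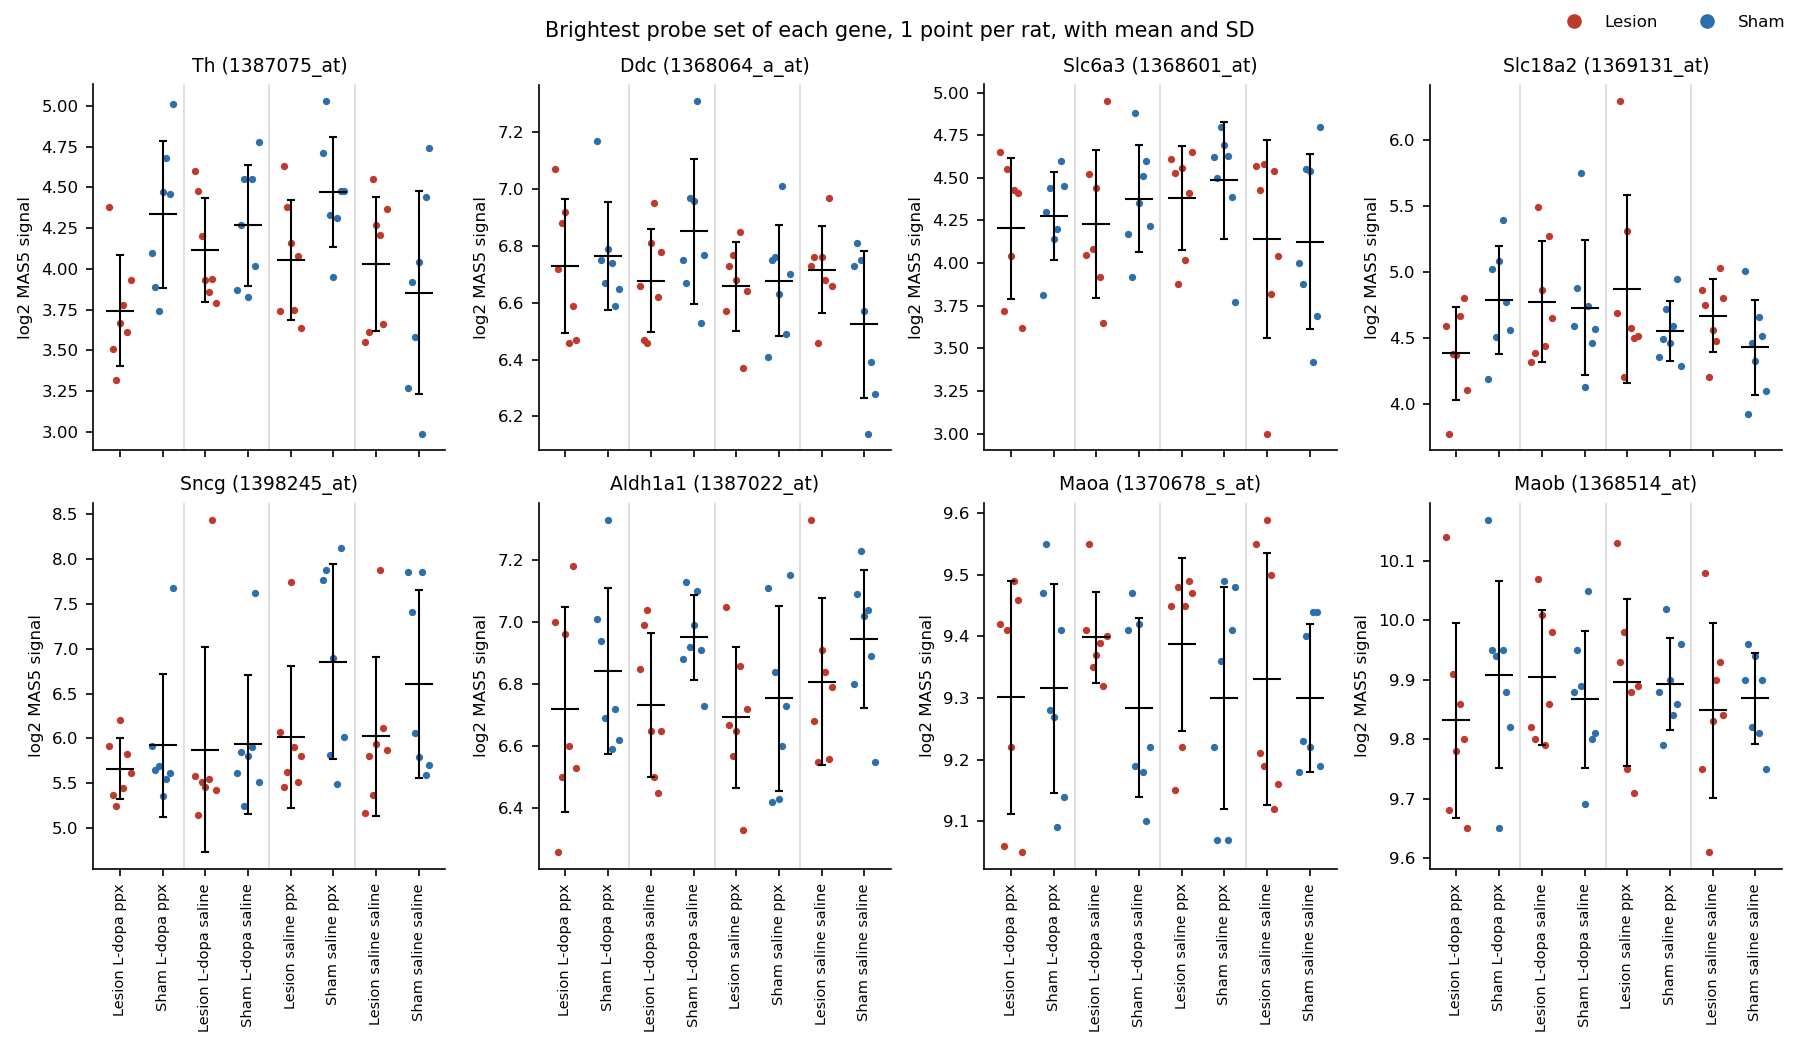
Log2 signal (vertical axis) of the brightest probe set of each gene in each rat, by group (horizontal axis, lesioned group left of its sham group; ppx is pramipexole), with black bars for the mean and SD of 7 rats. Lesioned rats given both drugs have the lowest Th mean of the 8 groups (3.74), and Sncg shows a separate set of rats at 6.90 and above.

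**Figure D2:**
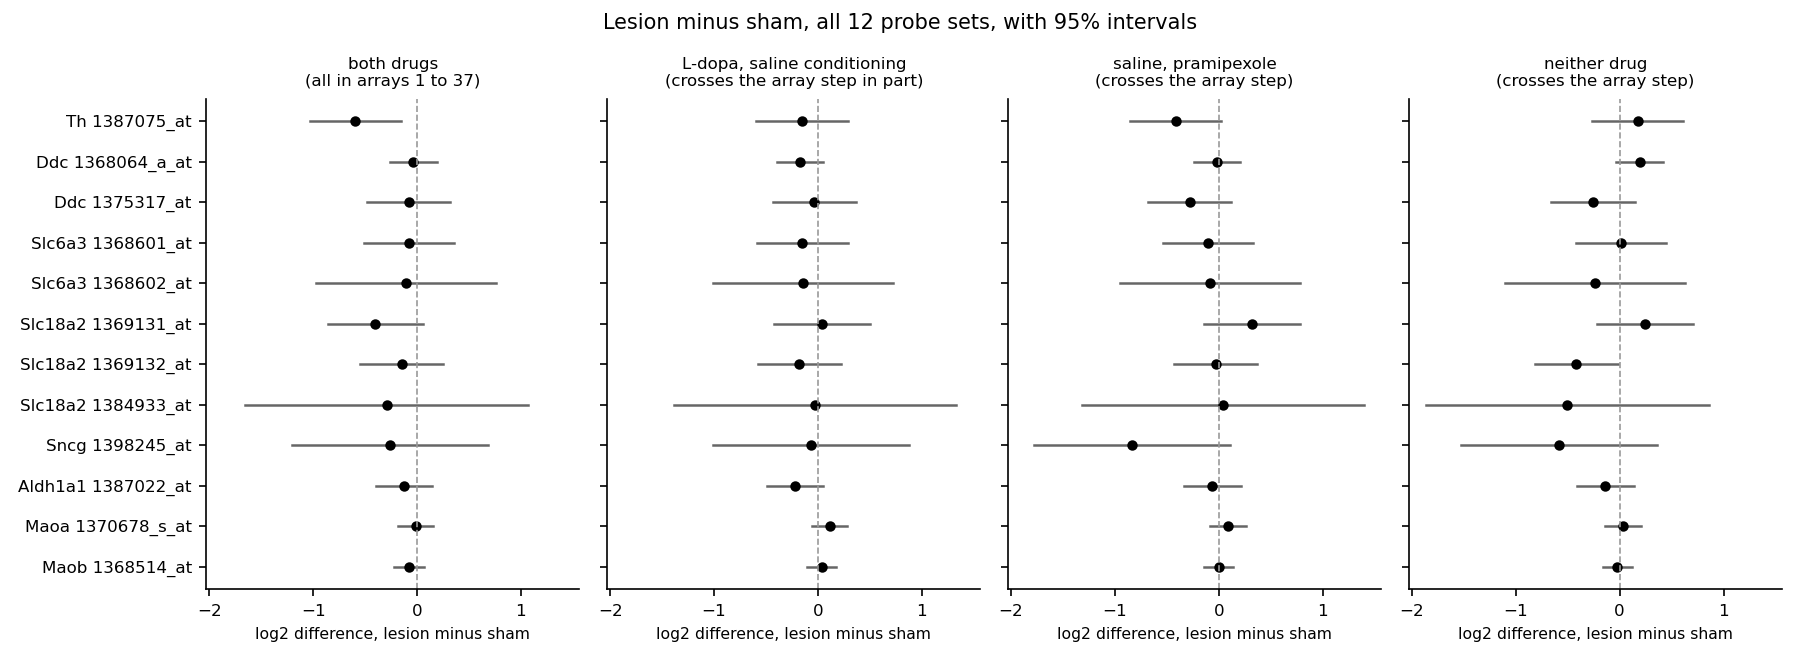
Log2 difference, lesioned minus sham, with its 95% interval from limma for all 12 probe sets, in the 4 drug combinations. In rats given both drugs all 12 points lie below 0 and the Th interval is the only one that leaves out 0; none of the 48 differences passed the adjusted test.

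Other genes of the pathway did not pass the test in rats given both drugs either. Of the tetrahydrobiopterin genes, 2 of 4 were higher and 2 lower (median 0.04), and Gch1, the enzyme that starts cofactor synthesis, differed by -0.26 ± 0.26. Of 7 other enzymes of catecholamine breakdown, 5 were higher and 2 lower (median 0.04). Of 13 genes of midbrain dopamine neuron identity, 5 were higher and 8 lower (median -0.03). Nr4a2, a transcription factor of these neurons, and Ret, a receptor for neurotrophic factors, each differed by -0.03. The lowest unadjusted p of that list was that of En2, a midbrain transcription factor below the mark of dimness, at -2.05 ± 0.75 (limma adjusted p = 0.740). Of 6 genes of other monoamine terminals, 3 were higher and 3 lower, with Slc6a2, the noradrenaline transporter, at -1.37 ± 0.63 (adjusted p = 0.786). Slc6a2 and 4 others of these 6 genes, all but Slc22a3, lie below the mark of dimness.

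Markers of other cells were uneven in the same comparison, and single rats set the largest values. All 8 microglial markers had a higher mean in lesioned rats given both drugs, with a median difference of 0.43, and 3 had an unadjusted p under 0.05 while none was called. The mean of the 8 markers ranged between 6.93 and 9.66 in lesioned rats, against 6.93 and 7.27 in sham rats, and 7 of the 8 markers (all but Itgam) were above the mark of dimness. Without lesioned rat 2, which has the highest value, 4 of 8 were higher with a median of 0.02, and the list mean was 7.06 in lesioned and 7.08 in sham rats. Of 7 choroid plexus markers 6 were higher (median 0.44), with none called. Their mean ranged between 3.94 and 7.05 in lesioned rats, against 3.85 and 4.41 in sham rats, and 3 of the 7 (Ttr, Folr1 and Aqp1) were above the mark of dimness. Without lesioned rat 7, the highest, 5 of 7 were higher with a median of 0.13. The Th difference was -0.56 without rat 2 and -0.63 without rat 7. Of 11 medium spiny neuron markers 9 were higher (median 0.10), and of 10 astrocyte markers 8 were lower (median -0.06); the part of these 2 lists in the Th values was not tested. The 3 prime minus 5 prime signal of control genes, a sign of RNA quality, had a mean of 0.88 with the lesion and 0.84 without (two-sided exact permutation p = 0.49), and with it as a covariate the Th difference was -0.56.

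In the other 3 lesion pairs, again 0 of the 12 probe sets were called, while 0.113% of all probe sets were called in rats given L-dopa and saline conditioning, 0.416% in rats given saline and pramipexole and 0.467% in rats given neither drug. Of the 12 probe sets, 9, 8 and 7 had a lower mean in lesioned rats in those 3 pairs, beside 58.2%, 55.5% and 58.5% of all probe sets. Median differences of the 12 were -0.10, -0.04 and -0.08. At an unadjusted p under 0.05, 0, 0 and 1 of the 12 were counted, against 8.39%, 9.95% and 11.7% of all probe sets. The lesioned and sham rats of a pair were without overlap in 0 of the 12, against 0.216%, 0.490% and 0.412% of all.

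Th differed by -0.15 ± 0.22 in rats given L-dopa and saline conditioning, -0.41 ± 0.22 in rats given saline and pramipexole and 0.18 ± 0.22 in rats given neither drug, so the direction was not shared by the 4 pairs. Its values in rats given neither drug were 3.55, 4.21 and 4.55 in lesioned rats, against 2.99, 3.92 and 4.74 in sham rats, whose spread was the widest of the 8 groups. Over the 4 pairs together the difference was -0.25 ± 0.11 (limma unadjusted p = 0.0284, adjusted p = 0.223). In that comparison 0 of the 12 and 3.00% of all probe sets were called, and 1 of the 12 against 17.1% had an unadjusted p under 0.05. All its pairs but the one given both drugs cross the array step, wholly or in part. With the array set as a block or with quantile normalization, that count was 0 of 12, against 1330 and 4705 of all probe sets. It was 2 of 12 with an intensity trend and robust prior, an RNA quality covariate or the offset of 16, against 5331, 4216 and 5437.

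Single Slc18a2 probe sets did not move as one across the pairs. The brightest differed by 0.04 ± 0.23, 0.32 ± 0.23 and 0.24 ± 0.23 in the 3 pairs in the same order. Without 1 lesioned rat at 6.29, the value in the pair given saline and pramipexole was 0.08. The second differed by -0.18 ± 0.20, -0.03 ± 0.20 and -0.42 ± 0.20, and the last of these had an unadjusted p of 0.0406 (limma adjusted p = 0.4002). In rats given neither drug, the 2 probe sets of this 1 gene point opposite ways. There the 3 prime minus 5 prime signal was 0.81 with the lesion and 1.01 without (exact permutation p = 0.0029). With that signal as a covariate, 0 of the 12 probe sets had an unadjusted limma p under 0.05, against 1 without it. Over all probe sets the counts were 2410 with the covariate and 3642 without. For the 12, the count was also 0 with the array set as a block or the offset of 16, and 1 with quantile normalization. Without a drug, Sncg differed by -0.58 ± 0.47, and with pramipexole alone by -0.84 ± 0.47 (limma adjusted p = 0.667 and 0.578). Both pairs cross the array step, and their Sncg means include rats at 6.90 and above. Without a drug these were 1 lesioned and 3 sham rats, and with pramipexole alone 1 and 4, out of 7 each. The remaining rats had means of 5.71 (lesioned) and 5.78 (sham) without a drug, and 5.73 and 5.78 with pramipexole alone. In the pair given pramipexole alone, the 3 prime minus 5 prime signal was 0.80 with the lesion and 0.93 without (exact permutation p = 0.02). With that signal as a covariate, 1 of the 12 probe sets had an unadjusted limma p under 0.05, against 0 without it, and 0 were called. Over all probe sets the unadjusted counts were 2867 with the covariate and 3090 without. Aldh1a1 was lower in lesioned rats in all 4 pairs, with differences between -0.22 and -0.06, and over the 4 pairs it differed by -0.14 ± 0.07 (unadjusted p = 0.0501, adjusted p = 0.292).

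L-dopa was compared with saline in lesioned rats and, for saline conditioning only, in sham rats. In lesioned rats over both conditionings, 0 of the 12 probe sets and 0.00322% of all probe sets were called, and 0 of the 12 against 8.50% had an unadjusted p under 0.05. Lower means were seen in 8 of the 12, with a median of -0.01. Taken by conditioning, 0 of the 12 and 0% of all were called by limma in both, and 1 of 12 with pramipexole and 0 of 12 with saline conditioning had an unadjusted p under 0.05, against 5.11% and 10.0% of all. The brightest Slc18a2 probe set, in lesioned rats with pramipexole, had values of 3.78, 4.38 and 4.80 with L-dopa, against 4.21, 4.58 and 6.29 with saline. The difference of -0.49 ± 0.23 (unadjusted p = 0.0394, limma adjusted p = 0.963) moved to -0.25 when the rat at 6.29 was left out. These L-dopa-treated lesioned rats are the ones set against sham rats above, so both comparisons share them.

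In sham rats with saline conditioning, the brighter Ddc probe set had values of 6.53, 6.77 and 7.31 with L-dopa, against 6.14, 6.57 and 6.81 with saline. Overlap was partial, and the difference was 0.33 ± 0.11 (interval 0.11 to 0.55; unadjusted p = 0.0047, limma adjusted p = 0.489). It stayed between 0.25 and 0.38 when each rat was left out in turn. The second Ddc probe set went the other way, at -0.19 ± 0.20. In lesioned rats the brighter probe set differed by 0.07 with pramipexole and -0.04 with saline conditioning. Of the 12 probe sets, 0 were called in these sham rats, as were 0% of all, and 1 of 12 against 7.16% had an unadjusted p under 0.05. Only 2 of the 7 L-dopa-treated sham rats are in arrays 1 to 37, and all 7 saline-treated ones are in arrays 38 to 56. For the brighter Ddc probe set, the 5 L-dopa-treated rats in arrays 38 to 56 had a mean of 6.91, against 6.53 in the 7 saline-treated ones. The 2 in arrays 1 to 37 had a mean of 6.71.

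Pramipexole, tested with saline conditioning beneath it in 3 pairs, left the 12 probe sets evenly divided: 6 higher and 6 lower over the 3 pairs, with a median of 0.01. With limma 0 of the 12 were called over the 3 pairs or in any of them (0% of all probe sets). At an unadjusted p under 0.05, 0 of 12 were counted over the 3 pairs, against 5.74% of all. By pair it was 0 in lesioned rats given L-dopa, 0 in lesioned rats given saline and 1 in sham rats given saline, against 5.60%, 6.43% and 5.80% of all. Th was the exception in size, in sham rats given saline. There its values were 3.95, 4.48 and 5.03 with pramipexole, against 2.99, 3.92 and 4.74 with saline. The difference was 0.61 ± 0.22 (interval 0.18 to 1.05; unadjusted p = 0.0070, limma adjusted p = 0.715), and between 0.47 and 0.76 when each rat was left out. In lesioned rats the Th difference was 0.02 given saline and -0.37 given L-dopa. The sham rats given neither drug are the reference of this Th difference and of the Ddc difference with L-dopa, so the 2 are not separate observations. They also enter the lesion pair given neither drug and the lesion by pramipexole interaction. Of the 8 groups, their mean was the lowest for the brighter Ddc probe set (6.53) and the highest for the 3 prime minus 5 prime signal (1.01).

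Whether effects differed between groups was tested directly. The lesion by pramipexole interaction without L-dopa was -0.59 ± 0.31 for Th (limma unadjusted p = 0.0622, adjusted p = 0.847). The L-dopa by pramipexole interaction in lesioned rats was -0.59 ± 0.32 for the brightest Slc18a2 probe set and -0.55 ± 0.28 for the second (limma unadjusted p = 0.0758 and 0.0554). Without the rat at 6.29 that of the brightest was -0.35. With limma, 0 of the 12 probe sets had either interaction called, and 0% of all did. At an unadjusted p under 0.05 it was 0 of 12 for both, against 5.99% of all for the interaction with the lesion and 6.23% for that with L-dopa.

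**Figure D3:**
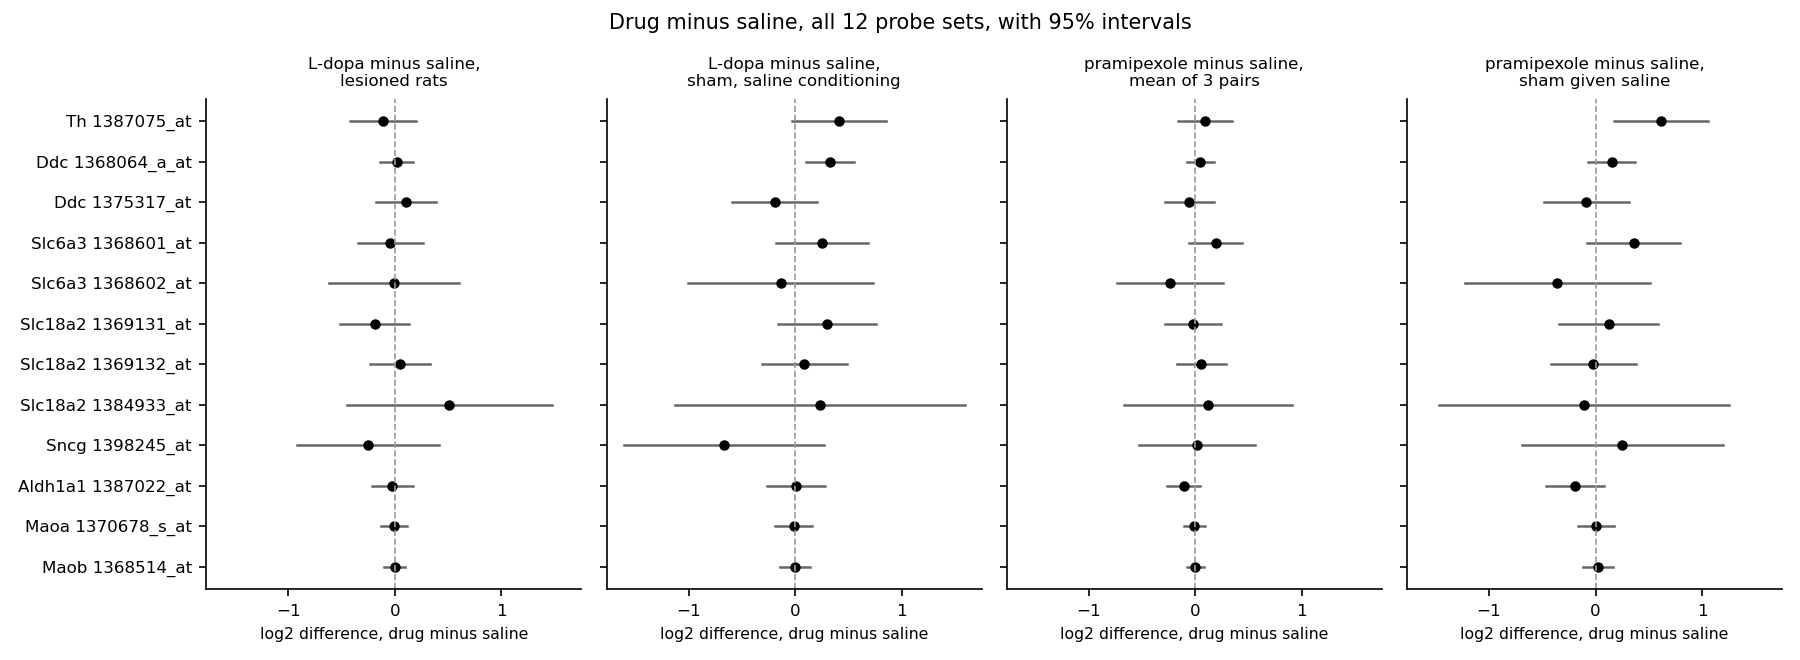
Log2 difference, drug minus saline, with its 95% interval from limma for all 12 probe sets, in 4 of the drug comparisons. The brighter Ddc probe set in sham rats given L-dopa (0.33) and Th in sham rats given pramipexole (0.61) have the only intervals that leave out 0. Both differences use the sham rats given neither drug as their reference.

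Sncg had the widest gap in its values of the 12 probe sets. Its 56 signals fell on both sides of a gap of 0.69 log2 units, with 44 rats between 5.15 and 6.21 (median 5.62) and 12 rats between 6.90 and 8.44 (median 7.81). Of 18625 probe sets above the mark of dimness, 26, Sncg included, had a gap as wide with at least 5 rats on each side. Next widest of the 12 was a gap of 0.57 in the dimmest Slc18a2 probe set, with 20 rats up to 2.09 and 36 from 2.65. Above the gap were 3 of 28 lesioned rats, at 8.44, 7.74 and 7.88, and 9 of 28 sham rats, between 6.90 and 8.12.

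The rats above the gap were spread over 7 of the 8 groups. By drug combination, 0 lesioned and 1 sham rat given both drugs were above it, then 1 and 1 given L-dopa and saline conditioning, 1 and 4 given saline and pramipexole, and 1 and 3 given neither drug, out of 7 each. By array, 8 of the 19 in the second set and 4 of the 37 in the first were above it. Among sham rats it was 8 of 19 in the second set and 1 of 9 in the first, and among lesioned rats, all in the first set, 3 of 28. Within the rats below the gap, group medians ran between 5.49 and 5.84.

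**Figure D4:**
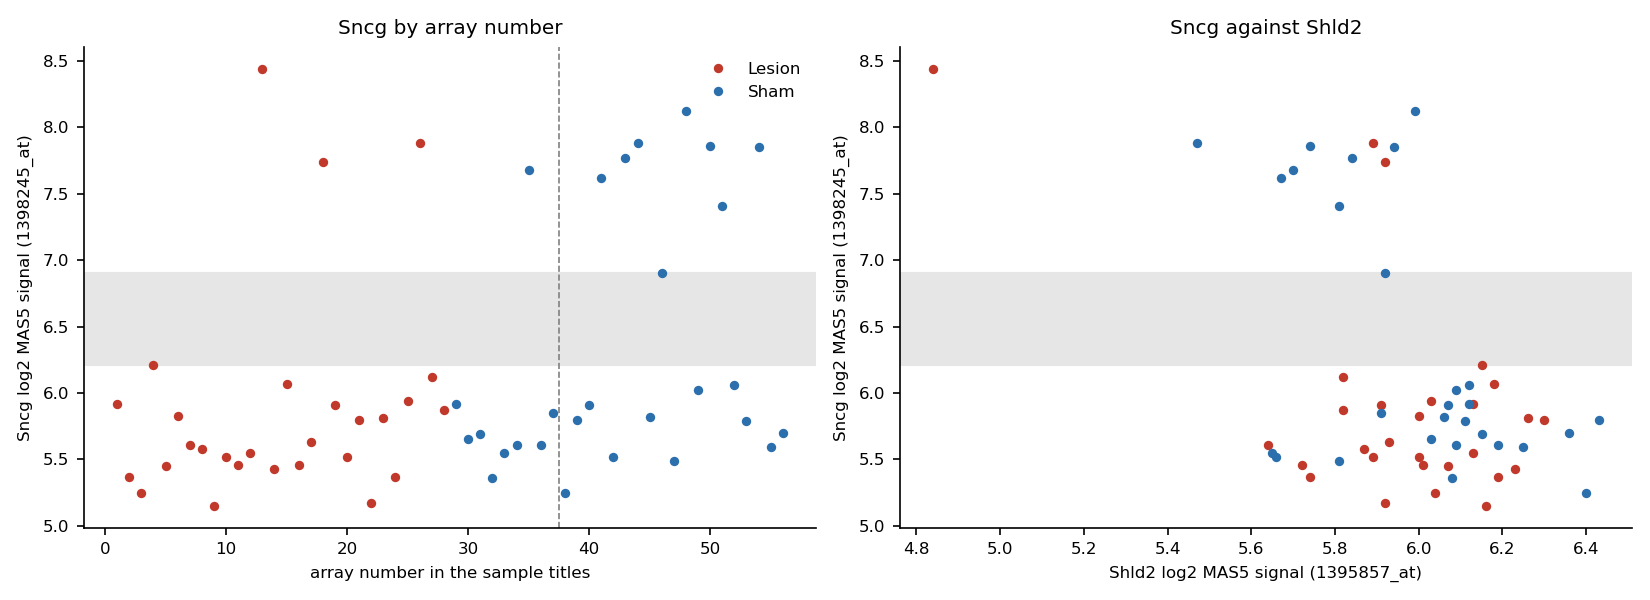
Log2 signal of Sncg in each rat against the array number in the sample titles (left; the dashed line marks the step after array 37) and against the log2 signal of Shld2, a nearby gene (right); the grey band is the gap between 6.21 and 6.90. High rats occur on both sides of the step and in lesioned and sham rats.

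By deviation from the group means, the probe set least like Sncg was 1 of the 2 for Shld2, a DNA repair gene of the shieldin complex that lies on the same chromosome, 16, with 2 protein-coding genes between them. Its r was 0.07 in the 44 rats below the gap and -0.47 in the 12 above it, and since the rats fall into these sides no r over all of them is given. The other Shld2 probe set had r of 0.21 below the gap and -0.33 above it. The most like probe sets, those of Mbnl1, Polr1f and Sec24b, had r of 0.20, -0.05 and 0.21 below the gap and 0.38, 0.74 and 0.25 above it. Of the 7 pairs of Sncg with the other genes, 0 passed within either side after adjustment; the closest was Maob in the rats below the gap (r = 0.43, permutation p = 0.011, adjusted p = 0.077; Spearman rho = 0.39).

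Between rats, the 8 genes varied together only weakly. Over their 28 pairs, those with Sncg taken over both sides of its gap, r of the deviations from group means ran between -0.28 and 0.43. The pairs Aldh1a1 with Maoa (r = 0.43, rho = 0.45) and Ddc with Maob (r = 0.40, rho = 0.36) each had a permutation adjusted p of 0.049 by Pearson's r, and of 0.06 and 0.14 by Spearman's rho. Without the 2 rats farthest from the median, r was 0.43 and 0.35. In arrays 1 to 37 r was 0.48 and 0.45, and in arrays 38 to 56 it was 0.34 and 0.45, with no pair called in either set alone.

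Maob varied with astrocyte markers, but also with many other probe sets. Its absolute r was above 0.4 with 10.1% of 13611 probe sets. Maob is best known in the brain from astrocytes and serotonin neurons. Its deviations correlated with the mean of 10 astrocyte markers at r = 0.66 and rho = 0.55 over 56 rats (permutation p = 1e-05, the smallest the permutations can give; adjusted over 64 relations 0.00064). Without the 2 farthest rats r was 0.56, and it was 0.75 in arrays 1 to 37 and 0.36 in arrays 38 to 56. Of the single markers, S100b (r = 0.70), Slc1a3 (0.65), Gja1 (0.63), Slc1a2 (0.58) and Aqp4 (0.58) were the closest. Aldh1l1 (0.26) and Gfap (0.11) were the least close. The genes most like Maob of all were Pon2 (r = 0.77), Atp1b2 (0.75) and Cldn10 (0.72).

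Ddc and Aldh1a1 also moved with markers of other cells, at lower r. Ddc correlated with the endothelial and mural list at r = 0.49 (rho = 0.44, permutation adjusted p = 0.021), and was 0.41 without the 2 farthest rats. Its r with oligodendrocyte markers was 0.41 and with other monoamine terminals, a list of mostly dim probe sets, 0.39 (adjusted p = 0.039 each). Aldh1a1 had r = 0.45 with oligodendrocyte markers, 0.41 with markers of septum, thalamus and pallidum and -0.41 with medium spiny neuron markers (adjusted p = 0.039 each). The last was -0.26 without the 2 farthest rats, so it rests partly on them. Left out the same way, Ddc had r of 0.33 with oligodendrocyte markers and 0.41 with other monoamine terminals. Aldh1a1 then had 0.39 with oligodendrocyte markers and 0.43 with septum, thalamus and pallidum. By Spearman's rho the permutation adjusted p was 0.055 (Ddc) and 0.05 (Aldh1a1) for oligodendrocyte markers and 0.1 for medium spiny neuron markers. It was 0.04, 0.04 and 0.045 for the endothelial, monoamine and septum lists. The part of these markers in the group differences above was not tested.

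Maoa was most like Uxt, a prefoldin-like cofactor gene on the same chromosome, X, with 28 protein-coding genes between them: r was 0.67 and rho 0.65 over 56 rats. Rbbp8 (r = 0.57) and Slc27a1 (0.53) came next. One of the 2 probe sets of Araf, a kinase gene that also lies between Maoa and Uxt, had r = 0.51, and the other had r = -0.09. Zfp182, beyond Uxt, had r = 0.51. Of 29 probe sets of genes within 25 on each side of Maoa, 2 (6.90%) had an absolute r above 0.4, against 0.331% of 13611 probe sets. The median absolute r was 0.13 near Maoa and 0.10 over all, and r with Maob, also on X, was 0.20. The same shares were 5.26% against 4.00% for Ddc, 3.23% against 3.64% for Aldh1a1 and 12.9% against 10.1% for Maob. For Sncg it was 1 of 14 (7.14%) against 0.242%, counted over both sides of its gap. The 1 was the Shld2 probe set whose r was 0.07 in the rats below the gap. Ddc was most like Sptbn1 (r = 0.60), C19h1orf198 (0.57) and Slco1c1 (0.57), and Aldh1a1 most like Daam1 (0.64), Mid1ip1 (0.62) and Hhatl (0.61).

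**Figure D5:**
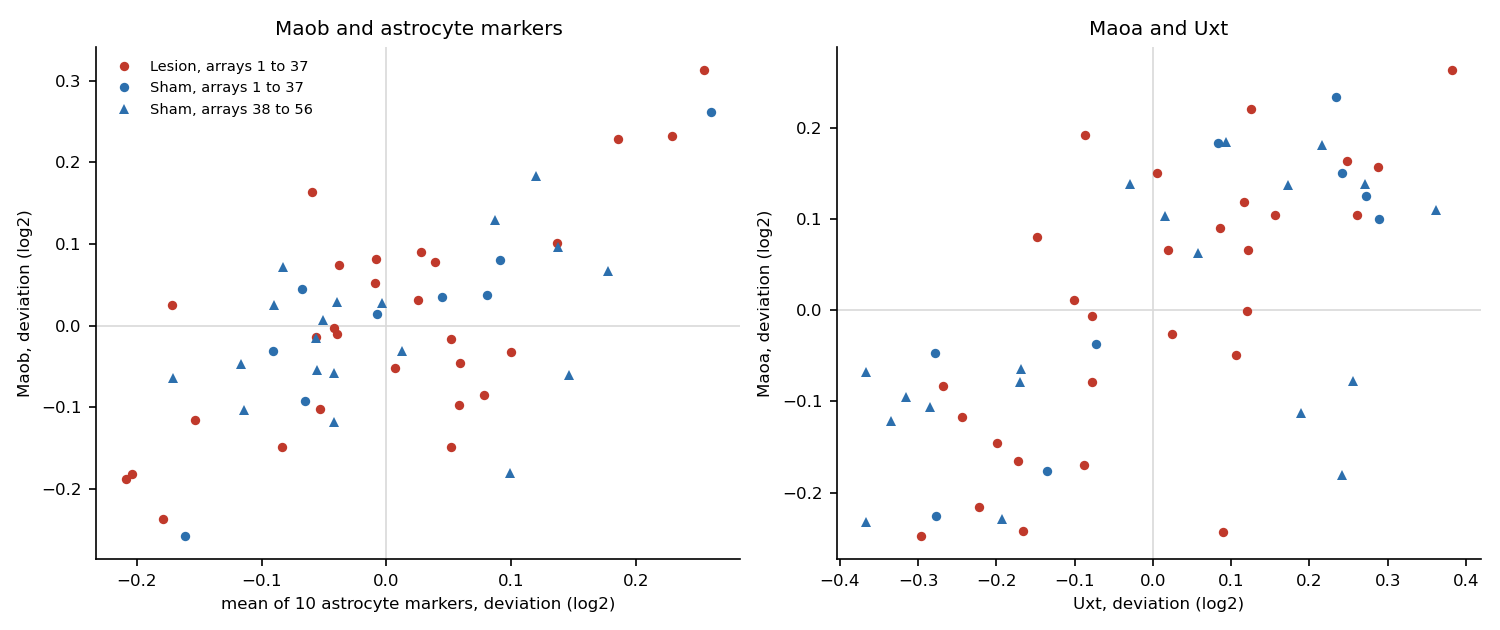
Deviation from the group mean (log2) of Maob against the mean of 10 astrocyte markers (left, r = 0.66) and of Maoa against Uxt (right, r = 0.67), 1 point per rat, by surgery (colour) and array set (shape). Every group is centred on 0 by the way deviations are taken, so the panels cannot show a difference between groups. On the left r was 0.75 in the first array set and 0.36 in the second.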

How the data were processed

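Per the labels' protocols, total RNA of the dorsal striatum was labelled with a 3 prime IVT kit and hybridized to Rat230_2 arrays. MAS5 is the tool named in the submitters' processing notes; its version and scaling target are not given in the sources used here. The deposited values are log2 signals. Checked on the values, their unlogged trimmed mean (2% off each end) was between 150.042 and 150.046 on every array, and array medians were between 5.62 and 5.81. They were used as deposited, with no filter, because dim probe sets were to be described; no detection calls were used. Symbols come from the platform annotation.

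A model of the 8 group means over 56 arrays was fitted in limma 3.58.1 (R 4.3.3), with eBayes and Benjamini-Hochberg adjustment over 31042 probe sets (57 controls left out) within each of 15 comparisons; tests were two-sided and a call is an adjusted p under 0.05. A gene's brightest probe set stands for it. Correlations used deviations from group means, with 100000 permutations within groups. Replicates are separate animals, and precision is limited by how many arrays a group has.

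The members and lists were chosen with earlier results of these data known. Named genes are all members, at most 3 genes of smallest p from each list, those that pass, Gch1, Nr4a2 and Ret, and the 3 most like genes of each member above the 40th percentile. The genes named in the tissue check and the single astrocyte and choroid plexus markers fall outside this rule and were chosen after values were seen, as were the values without lesioned rats 2 and 7. The step after array 37, found from the values, the count around the Sncg gap, the chromosomal neighbours, the least like genes and the relations with marker lists were chosen after values were seen. Alternatives were a 40th percentile filter, quantile normalization, the array set as a block, an intensity trend with a robust prior, an RNA quality covariate, an offset of 16, fewer groups, and each rat left out in turn. The fit was tested on simulated data.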

Additional observations from a re-analysis of the deposited data

Results flagged for a closer look

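In 14 of 96 combinations of a probe set and a group, 1 rat lay so far from the other 6 that its gap to the nearest exceeded 0.568 of the group's range; chance flags about 1 in 20 such groups. Of these, 5 were Sncg, each time the highest rat: 8.44 in lesioned rats given L-dopa and saline conditioning (the others 5.15 to 5.58), 7.74 in lesioned rats given saline and pramipexole, 7.88 in lesioned rats given neither drug, 7.68 in sham rats given both drugs and 7.62 in sham rats of the L-dopa and saline conditioning pair. These are the groups in which a single rat lies above the gap. For the brighter Ddc probe set it was a sham rat given both drugs at 7.17, next to 6.79. For the second Ddc probe set it was rat 9, lesioned and given L-dopa and saline conditioning, at 3.59, and a sham rat given neither drug at 4.34.

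The same rat 9 was the highest of its group for Maoa, at 9.55, and for the dimmer Slc6a3 probe set, at 3.54. That probe set also had a high value of 2.49 in a lesioned rat given both drugs. Rat 49, a sham rat given saline and pramipexole, was the lowest of its group for the brighter Slc6a3 probe set, at 3.77, and for the second Slc18a2 probe set, at 3.56. The last was a lesioned rat given neither drug, at 2.38 for the second Slc18a2 probe set, where the next rat was at 3.59.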

How the results depend on the processing

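In all 15 comparisons the number of the 12 probe sets called stayed at 0 under every alternative that was run, each rat left out included, and 429 of 429 such counts were the same. Of the differences of single probe sets, 14 both changed sign and moved by more than the SE of the main fit, none of them a called one. The other 5029 did not do both. Some of those still changed in sign or size, as Sncg did without 1 sham rat and Th with the offset. Most of the 14 came with the array set as a block, for the lesion: over the 4 pairs the brighter Slc6a3 probe set was then 0.24, the brighter Ddc probe set 0.13 and Maoa -0.09. Lesion counts over all probe sets depend on that block, with 931 called without it and 5 with it. The correlations between the 8 genes held least: 2 of 28 pairs passed by Pearson's r, against 0 in arrays 1 to 37, 0 in arrays 38 to 56, 0 with RNA quality as a covariate and 0 by Spearman's rho. No paired analysis was possible because the rat numbers are not shared between groups. Th, Slc6a3 and Slc18a2 lie below the 40th percentile and have no value under that filter; a signal near the floor of the array limits what their differences can show.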

Other observations

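Among the marker lists outside the pathway, 2 genes were called as lower in lesioned rats over the 4 pairs. Of all probe sets, 3.00% (931) were called in that comparison, and 5 were with the array set as a block. Acta2, a smooth muscle actin of vessel walls, differed by -0.23 ± 0.05 (SE; limma adjusted p = 0.0025), and Sv2b, a synaptic vesicle protein of cortical neurons, by -0.23 ± 0.07 (adjusted p = 0.0462). Acta2 was also called in rats given neither drug, at -0.43 ± 0.09 (adjusted p = 0.0172). In rats given both drugs, the pair that lies wholly in the first array set, Acta2 differed by 0.10 ± 0.09 and Sv2b by -0.20 ± 0.14 (limma adjusted p = 0.923 and 0.877). In the pairs given no L-dopa, lesion and array set cannot be told apart.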
